A study of Homo sapiens with 10 samples.

Results

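Lysosomal proteases and hydrolases were followed in the RNA-Seq libraries of MV4-11 cells with and without a deletion of the transcription factor IRF8. The genes were chosen by symbol, 46 of the 19590 genes of the table, and comprise cathepsins and related proteases, cystatins, glycosidases, sulfatases, lipid hydrolases, membrane proteins, phosphatases, a nuclease and the regulators TFEB and GRN. MV4-11 is an established acute myeloid leukemia cell line with monocytic features and an internal tandem duplication in FLT3. The control group consisted of 4 libraries (genotype Control) of MV4-11 cells that had received the control vector, and the IRF8 KO group of 4 libraries from IRF8 knockout cells (genotype IRF8 KO). Both groups therefore carry the lentiviral CRISPR vector and the leukemia mutations of the line. The knockout cells were clones grown out by limiting dilution, and the sources used here do not say which clone gave which library or whether the replicates came from separate cultures. The p-values thus measure the spread between these libraries, which may be technical.

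Lysosomes are acidic organelles in which hydrolases break down proteins, glycans, lipids and nucleic acids. Most of these enzymes are made in the endoplasmic reticulum, receive a mannose phosphate tag in the Golgi and are sorted to the lysosome by receptors that bind the tag. Cystatins inhibit the cysteine cathepsins, and TFEB, a factor of the MiT/TFE family, drives many lysosomal genes through a promoter element built around CACGTG. In myeloid cells, lysosomal enzymes serve the digestion of ingested particles and antigen processing, and cathepsin C also activates the serine proteases of neutrophil granules. IRF8 is known for its role in the monocyte lineage.

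Promoter sequences from RefSeq were searched on both strands for CACGTG, for the full TFEB element (CACGTG preceded by GT and followed by AC), for an IRF motif (GAAA, any 2 bases, GAAA), for an ETS-IRF motif (GGAA, any 2 bases, GAAA) and for GAGGAAGT (a PU.1 motif). A match of the full TFEB element always holds a CACGTG match and was counted in both. Windows ran from 250 bases before to 50 bases after the gene start, and 33 of the 46 genes had one. CACGTG lay in 10 of the 33 promoters (30.3%), beside 28.4% of the promoters of 88 other lysosomal genes, 12.5% of those of all tested genes and 8.77% of all promoters. The full TFEB element was found in GAA and MCOLN1, 6.06% of the 33, beside 0.869% for all tested genes. The IRF motif had 0 matches (4.2% of all tested genes), the ETS-IRF motif 1 match, in DNASE2 (3.63% of all tested genes), and GAGGAAGT 1 match, in ACP5 (3.86% of all tested genes).

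The 250 bases before the start of 4 genes are printed 5′ to 3′ on the strand of the gene, with motif matches in capitals. LAMP1 and CTSD are shown as genes with CACGTG that were called higher in the IRF8 KO libraries, GAA as a gene with the full element that was not called, and DNASE2 as the gene with the ETS-IRF letters. They were picked after the matches were known. In assembly GRCh38.p14 they lie at chr13:113296989-113297238 (LAMP1, plus strand), chr11:1763928-1764177 (CTSD, minus strand), chr17:80101331-80101580 (GAA, plus strand) and chr19:12881450-12881699 (DNASE2, minus strand).
LAMP1: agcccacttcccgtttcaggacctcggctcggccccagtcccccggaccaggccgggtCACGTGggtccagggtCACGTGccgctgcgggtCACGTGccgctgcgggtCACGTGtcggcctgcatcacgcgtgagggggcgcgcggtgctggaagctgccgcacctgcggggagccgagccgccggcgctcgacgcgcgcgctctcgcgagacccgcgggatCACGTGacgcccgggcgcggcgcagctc
CTSD: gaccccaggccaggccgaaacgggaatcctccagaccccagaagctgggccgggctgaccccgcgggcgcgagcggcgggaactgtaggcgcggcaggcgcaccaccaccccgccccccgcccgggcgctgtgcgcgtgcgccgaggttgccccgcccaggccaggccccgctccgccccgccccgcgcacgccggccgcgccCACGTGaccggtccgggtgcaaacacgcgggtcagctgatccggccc
GAA: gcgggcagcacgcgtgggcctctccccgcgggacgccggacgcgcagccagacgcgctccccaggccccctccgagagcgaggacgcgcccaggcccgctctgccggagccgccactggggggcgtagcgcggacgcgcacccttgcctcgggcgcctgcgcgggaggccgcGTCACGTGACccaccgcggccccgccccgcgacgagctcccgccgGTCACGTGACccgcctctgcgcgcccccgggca
DNASE2: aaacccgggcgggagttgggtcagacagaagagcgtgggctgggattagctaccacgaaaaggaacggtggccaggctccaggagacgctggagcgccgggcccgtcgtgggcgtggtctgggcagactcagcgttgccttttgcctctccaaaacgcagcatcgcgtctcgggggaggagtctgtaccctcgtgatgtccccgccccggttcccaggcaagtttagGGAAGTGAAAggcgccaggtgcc
LAMP1 held 5 CACGTG matches in this stretch, the first at position -192 and the last at -28, where -1 is the last base before the start. The CTSD match began at -47, the GAA matches at -78 and -33, and the DNASE2 match at -23. A match is a description of letters and not evidence of binding.

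Gene-assigned reads numbered 39560072 in the shallowest library and 65519047 in the deepest (median 52233344). The targeted gene IRF8 had 36891, 15192, 43016 and 22535 normalized counts in control replicates 1 to 4 and 6377, 2401, 12903 and 7819.7 in IRF8 KO replicates 1 to 4 (log2 fold change -2.11 with a standard error, SE, of 0.51, limma adjusted p = 0.022). The adjusted p lay between 0.053 and 0.058 without control replicate 1, without control replicate 3 or without IRF8 KO replicate 1. Control replicates 1 and 3 stood apart from control replicates 2 and 4: in 81.2% of the 13110 tested genes the values of 1 pair did not overlap those of the other, and in the IRF8 KO libraries this held for 49.4%. Chromosome 20 stood low in the IRF8 KO libraries, its 351 tested genes having a median log2 fold change of -0.92, while the median of all tested genes was -0.00094. The 170 tested genes of chromosome 18 divided the IRF8 KO libraries. Their median log2 difference from the control mean was 0.13, 0.11, -0.59 and -0.57 in IRF8 KO replicates 1 to 4. For chromosome 5 it was 0.11, 0.10, 0.34 and 0.40. The IRF8 KO libraries were therefore not all alike, and the cause of this division was not tested. The leukemia marker FLT3 was present in all libraries, at 39931 to 66773 normalized counts. Among neutrophil granule markers, 4 of 6 tested genes were higher in the IRF8 KO libraries (MPO, ELANE, PRTN3 and AZU1). LTF (log2 fold change -2.05) and BPI (1.00) were not called. LTF was lower in all 4 same-numbered pairs. BPI stood high in IRF8 KO replicate 1 alone, at 218 normalized counts beside 20.3 to 22.9 in IRF8 KO replicates 2 to 4. CAMP, not tested, had a mean of 13.7 in the control and 4.23 in the IRF8 KO libraries. LCN2, MMP8 and CEACAM8 were under 10 in every library. The summed level of the 10 listed markers was 21499 to 31744 normalized counts in the control and 104585 to 254143 in the IRF8 KO libraries. This sum rests almost entirely on the 4 genes called higher. Of 11 tested monocyte and macrophage markers, FCGR1A, ITGAM and CD4 were higher and VCAN and MS4A7 lower. Not called were LYZ (log2 fold change 3.09), CD14 (1.35), FCN1 (0.98), CD86 (0.64), CSF1R (-0.27) and CD163 (-1.46). LYZ had 248604 normalized counts in IRF8 KO replicate 1 and 13767 to 39385 in IRF8 KO replicates 2 to 4. Its control values were 1734 to 14757. The part of these markers in the results on lysosomal genes was not tested, and in bulk RNA a shift in the share of cells of a type cannot be told apart from a shift in RNA per cell.

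Every functional class of the lysosomal list held transcripts that were more abundant in the IRF8 KO libraries, from proteases and glycosidases to LAMP1 and progranulin. Of the 46 genes, 21 were called higher and 2 lower at a limma adjusted p below 0.05, Benjamini-Hochberg adjusted over the 13110 genes whose mean reached 10 normalized counts, and 23 were not called. Over all tested genes, 8.65% were called higher and 9.56% lower. The log2 fold change, taken on log2(normalized count + 1), was above 0 in 36 of the 46 genes, beside 49.9% of all tested genes, and its median was 0.67. The 8 values did not overlap between the groups in 22 genes that were higher (12.3% of all tested genes) and in 4 that were lower (13% of all tested genes). All 46 genes passed the filter on low values, but CTSL, LGMN and ACP5 passed it through the IRF8 KO libraries alone, and without these 3 genes 19 of 43 were called higher. At the thresholds of the study (p below 0.01 and at least a 2-fold difference), 14 were higher and 2 lower, where 4.78% and 6.12% of all tested genes passed. In a fit blocked on the replicate number, 27 were higher and 6 lower (14.2% and 14.6% of all tested genes). Together the 46 genes accounted for 0.375% to 0.452% of the reads in a control library and for 0.534% to 0.801% in an IRF8 KO library, so that the groups did not overlap.

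**Figure D1:**
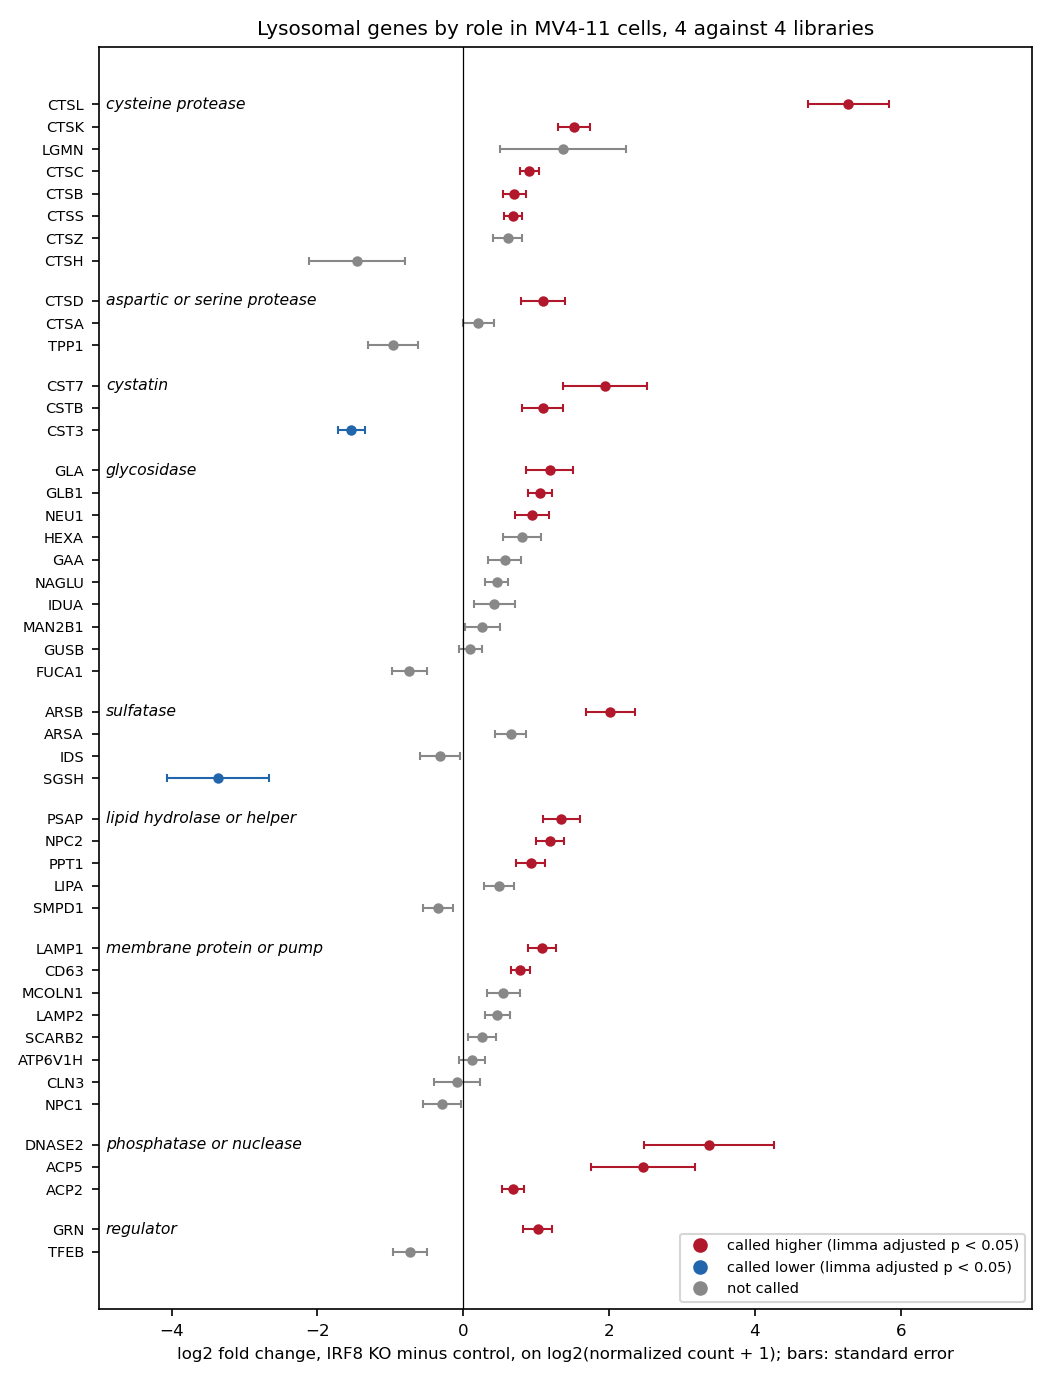
Log2 fold change of each of the 46 lysosomal genes by role (IRF8 KO minus control, on log2(normalized count + 1), 4 against 4 libraries), with bars for the standard error and colors for the limma call. The 21 genes called higher are spread over all roles, from CTSS (0.68) to CTSL (5.28), and the 2 genes called lower are CST3 and SGSH.

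The proteases and cystatins were compared with the other classes by their counts alone. Of the 14 protease and cystatin genes, 8 were called higher and 1 lower, with a median log2 fold change of 0.80. Of the 32 glycosidases, sulfatases, lipid hydrolases, membrane proteins, phosphatases, nuclease and regulators, 13 were called higher and 1 lower, with a median of 0.56. Both sets held more genes called higher than lower, where 8.65% of all tested genes were called higher and 9.56% lower. CTSL and LGMN in the first set and ACP5 in the second passed the filter on low values through the IRF8 KO libraries alone. They are part of these counts and medians. Whether the 2 sets differ was not tested.

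Among the cysteine proteases, CTSB, CTSC, CTSK, CTSL and CTSS were higher in the IRF8 KO libraries, and CTSZ, CTSH and LGMN were not called. CTSL, an endopeptidase with broad substrate range, had 5.63, 2.59, 4.3 and 8.47 normalized counts in control replicates 1 to 4 and 267, 74.6, 398 and 338 in IRF8 KO replicates 1 to 4. This was the largest log2 fold change of the 46 genes, at 5.28 (SE 0.56, limma adjusted p = 0.00042), with a mean 51.4 times that of the control. The control values rest on a few reads per library, so that the ratio is imprecise. CTSK, a collagen-degrading protease best known from osteoclasts, likewise had low counts, with 57.9, 77.6, 63.4 and 94.2 normalized counts in the control and 224, 186, 207 and 217 in the IRF8 KO libraries. Its log2 fold change was 1.52 (SE 0.22, limma adjusted p = 0.0019). The 4 IRF8 KO values of CTSK lay close together, all above every control value.

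Cathepsin C, encoded by CTSC, removes dipeptides from the granule serine proteases and thereby activates them. It had 16023, 13725, 15694 and 14157 normalized counts in the control and 30168, 22304, 31238 and 28741 in the IRF8 KO libraries (log2 fold change 0.91, SE 0.13, limma adjusted p = 0.0022). The IRF8 KO mean was 1.89 times the control mean. The transcripts of its granule substrates also differed, ELANE rising from 2867 ± 38.2 to 37710.1 ± 14557 normalized counts (SD, n = 4 each). For CTSB, an endopeptidase, the control libraries gave 21683, 24236, 19250.5 and 24859 and the IRF8 KO libraries 46370.4, 36914, 30098 and 34069 normalized counts (log2 fold change 0.70, SE 0.15, limma adjusted p = 0.014). CTSS, which trims the invariant chain in antigen presentation, gave 4033, 3968, 3357 and 3712 against 6974, 5997, 5864 and 5417 (log2 fold change 0.68, SE 0.12, limma adjusted p = 0.005). The groups overlapped in none of these 3 genes, and all 5 calls among the cysteine proteases held in each of the 8 fits without 1 library.

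CTSH, an aminopeptidase, went the other way without passing the test. Its normalized counts were 3018, 10743, 2869 and 8520.0 in the control and 865, 6244, 1311 and 1944 in the IRF8 KO libraries (log2 fold change -1.46, SE 0.66, limma adjusted p = 0.17). The control libraries themselves fell into a low pair (replicates 1 and 3) and a high pair (replicates 2 and 4), and IRF8 KO replicate 2 lay above the low pair. Blocking on the replicate number gave an adjusted p of 0.0034, and every IRF8 KO value was below the control value of the same number. LGMN, an asparagine-specific endopeptidase, stayed at low counts, between 2.59 and 15.3 in the control and between 2.87 and 63.6 in the IRF8 KO libraries (log2 fold change 1.37, limma adjusted p = 0.32), and the groups overlapped.

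Of the aspartic and serine proteases, CTSD was called higher and CTSA and TPP1 were not called. CTSD encodes the main aspartic protease of lysosomes and had 4427, 7948, 3979 and 7677 normalized counts in the control and 19494, 11449.7, 10357 and 9592 in the IRF8 KO libraries. The log2 fold change was 1.09 (SE 0.30, limma adjusted p = 0.036). The groups did not overlap, but the difference was 1.76 on the log2 scale in replicates 1 and 3 and 0.42 in replicates 2 and 4, and the call was lost without control replicate 1 or 3 or any single IRF8 KO library (largest adjusted p 0.092). TPP1, a tripeptidyl peptidase, had 16372, 23385, 15481 and 21845 normalized counts in the control and 13643, 15751, 5062 and 8115 in the IRF8 KO libraries (log2 fold change -0.97, SE 0.34, limma adjusted p = 0.087). Only IRF8 KO replicate 2 reached into the control range, and the blocked adjusted p was 0.02.

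**Figure D2:**
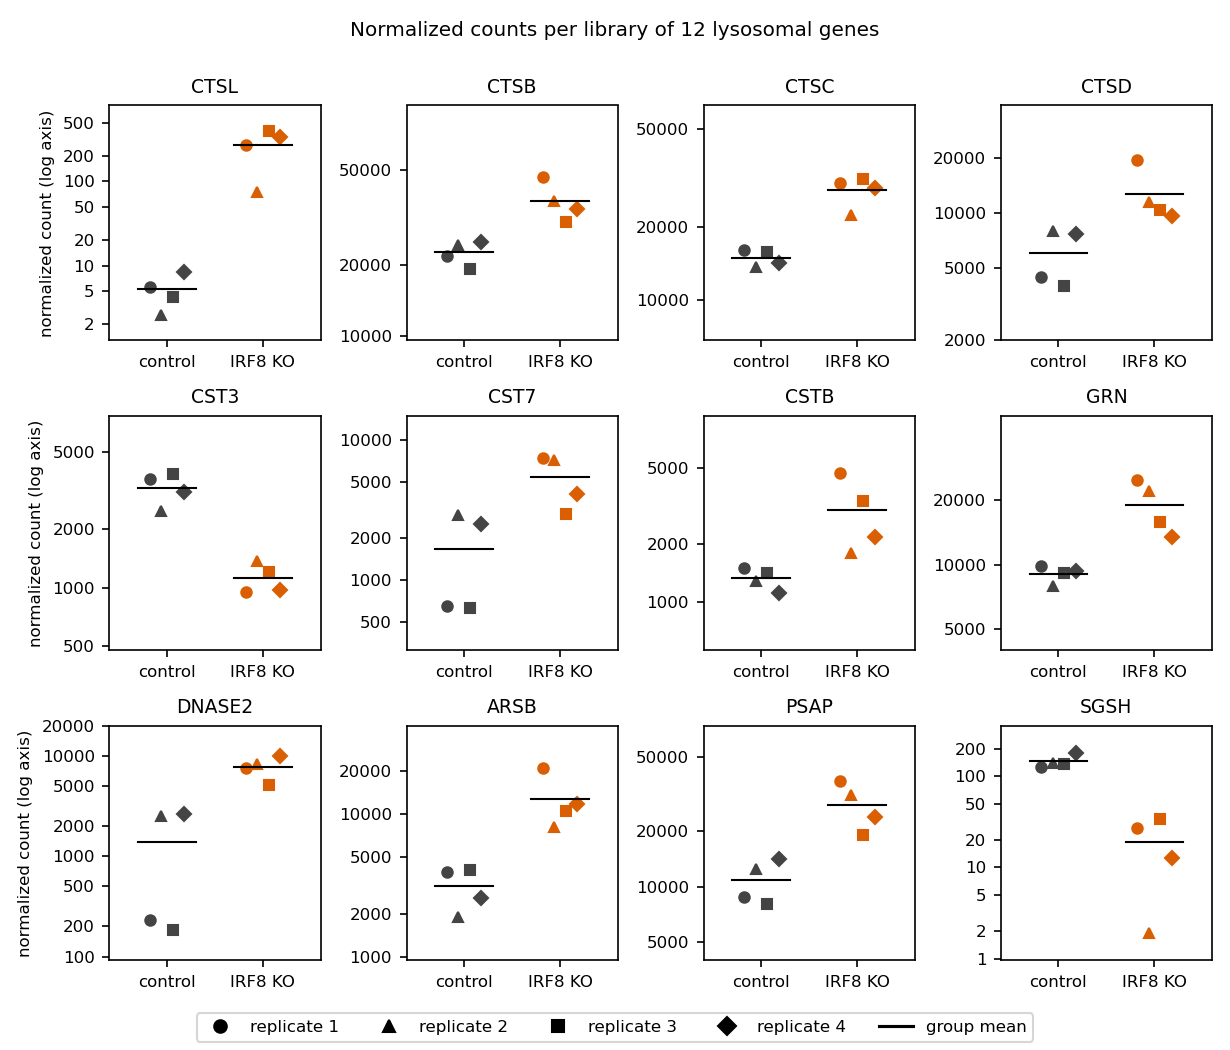
Normalized counts per library (log axes) of 12 lysosomal genes in the 4 control and 4 IRF8 KO libraries, with a marker shape for each replicate number and a line at the group mean. The groups do not overlap in any of the 12 panels, and in CTSB, CTSD, CST7, DNASE2, PSAP and SGSH control replicates 2 and 4 lie above control replicates 1 and 3.

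The 3 cystatins moved in different directions. CST7 encodes cystatin F, an inhibitor of immune cells that acts on cathepsin C, and had 650.0, 2893, 626 and 2510.2 normalized counts in the control against 7456, 7192, 2951 and 4094 in the IRF8 KO libraries (log2 fold change 1.94, SE 0.57, limma adjusted p = 0.046). CSTB, the cytosolic cystatin B, had 1495, 1291, 1414 and 1117 against 4709, 1797, 3379 and 2188 (log2 fold change 1.09, SE 0.28, limma adjusted p = 0.029). CST3, the secreted cystatin C, fell, from 3626, 2478, 3858 and 3117 to 951, 1380.2, 1201 and 971 (log2 fold change -1.53, SE 0.18, limma adjusted p = 0.00079). In each of the 3 genes all IRF8 KO values lay on 1 side of the control values. The call of CST3 held in each of the 8 fits without 1 library, whereas that of CST7 was lost without control replicate 1 or 3 or any single IRF8 KO library (largest adjusted p 0.12), and edgeR on the recovered reads did not call it. The call of CSTB was lost without IRF8 KO replicate 3 or any single control library (largest adjusted p 0.079).

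CTSA, CTSZ, CST3 and CST7 lie on chromosome 20, where 61.0% of the tested genes were called lower and 1.42% higher. CTSZ, a carboxypeptidase, had 7919, 5248, 6854 and 5486 normalized counts in the control and 12448, 10872, 8095 and 7765 in the IRF8 KO libraries (log2 fold change 0.61, SE 0.20, limma adjusted p = 0.065), and IRF8 KO replicate 4 lay below control replicate 1. It was higher in all 4 same-numbered pairs, and its blocked adjusted p was 0.018. CTSA encodes a carboxypeptidase that also stabilizes beta-galactosidase and neuraminidase and had 5318, 3128, 4909 and 3265 against 6159, 4419, 4371 and 3989 (log2 fold change 0.21, SE 0.22, limma adjusted p = 0.58). The groups of CTSA overlapped too. Both genes thus had similar or higher counts on a chromosome whose genes were mostly lower. Values were also taken relative to the median of the chromosome 20 genes in each library. On this relative log2 scale, the difference was 1.54 for CTSZ, 1.13 for CTSA and 2.87 for CST7, with no overlap between the groups (exact two-sided permutation test, p = 0.029 for each, the smallest that 4 against 4 libraries allow). For CST3 the relative difference was -0.61 and the groups overlapped (exact two-sided permutation test, p = 0.057), while limma on values centered on the chromosome medians still called the gene lower (adjusted p = 0.044). Of the 351 chromosome 20 genes, 10 had a higher log2 fold change than CTSZ, 24 a higher one than CTSA and 3 a higher one than CST7. CST3 was below the chromosome median but within its spread, since 17.1% of the genes there had a log2 fold change as low or lower. Off chromosome 20, 20 of 42 lysosomal genes were called higher and 1 lower. CSTB is a gene of chromosome 21 (129 tested genes, median log2 fold change -0.33), and its difference relative to that median was 1.43.

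**Figure D3:**
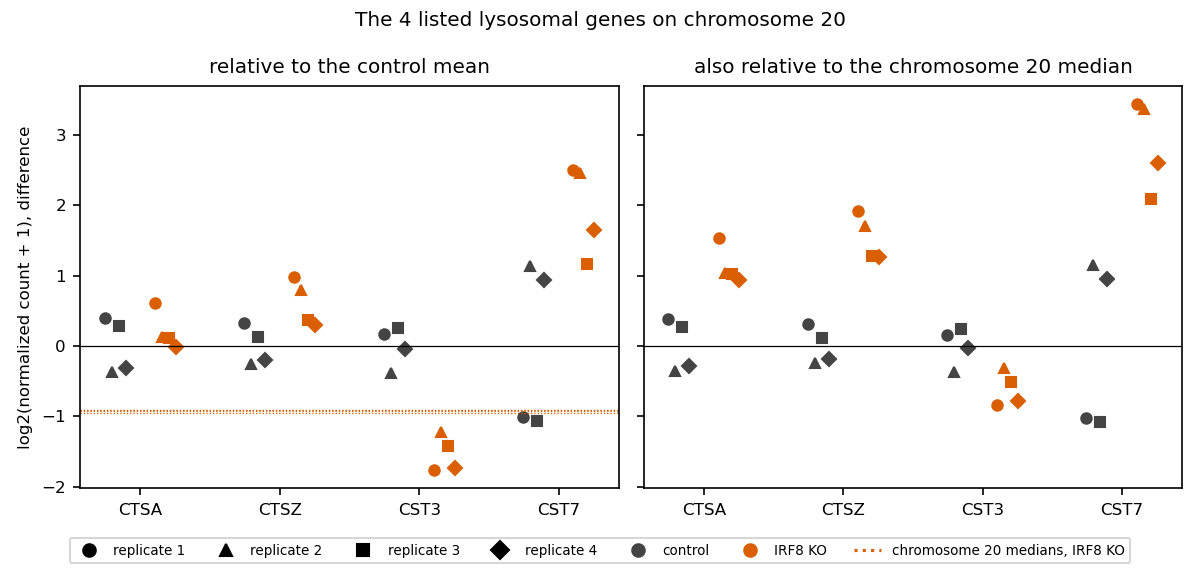
Log2(normalized count + 1) of CTSA, CTSZ, CST3 and CST7 in each library, as differences from the control mean (left) and after also subtracting the median of the chromosome 20 genes of that library (right), with dotted lines for the chromosome medians of the IRF8 KO libraries on the left. Relative to the chromosome median, the IRF8 KO values of CTSA, CTSZ and CST7 lie above all control values, while those of CST3 overlap the control values.

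Glycosidases remove sugar residues from glycolipids, glycoproteins and glycosaminoglycans. GLA, GLB1 and NEU1 were called higher and the other 7 of the 10 listed genes were not called. GLB1, the lysosomal beta-galactosidase, had 3365, 3926, 3068 and 4223 normalized counts in the control and 7896, 8935, 5747 and 7738 in the IRF8 KO libraries (log2 fold change 1.05, SE 0.17, limma adjusted p = 0.0033). GLA, the alpha-galactosidase that clears globotriaosylceramide, had 2364, 1189, 2321 and 1438 against 5395, 2662, 5696 and 3096 (log2 fold change 1.19, SE 0.32, limma adjusted p = 0.034). NEU1, which removes terminal sialic acid, had 4301, 3836, 3992 and 3989 against 11328, 5197, 9665 and 6258 (log2 fold change 0.94, SE 0.24, limma adjusted p = 0.025). The groups overlapped in none of the 3 genes. GLA and NEU1 were higher in replicates 1 and 3 than in replicates 2 and 4 of both groups. The call of GLA was lost without IRF8 KO replicate 1 or 3 or control replicate 2 or 4 (largest adjusted p 0.09), that of NEU1 without IRF8 KO replicate 1 or 3 or any control library (largest adjusted p 0.067), and that of GLB1 in 0 of the 8 fits.

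The alpha-mannosidase MAN2B1 had 19304, 10074, 17782 and 10876 normalized counts in the control and 19112, 20112, 15071 and 13499 in the IRF8 KO libraries (log2 fold change 0.26, SE 0.24, limma adjusted p = 0.52), and the groups overlapped. HEXA, GAA, NAGLU, IDUA and GUSB had log2 fold changes of 0.81, 0.57, 0.46, 0.43 and 0.10 with limma adjusted p-values between 0.063 and 0.74. With the block, HEXA (adjusted p = 0.0072), GAA (0.015) and NAGLU (0.029) were called higher. FUCA1, an alpha-fucosidase, was the only glycosidase with a negative log2 fold change, at -0.74 (limma adjusted p = 0.065). Its IRF8 KO values of 524 to 620.3 lay below the control values of 721 to 1516, and the blocked adjusted p was 0.044.

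Sulfatases went both ways. ARSB, which takes sulfate off dermatan and chondroitin sulfate, had 3944, 1886, 4068 and 2568 normalized counts in the control and 20841, 8165, 10418 and 11744 in the IRF8 KO libraries. The IRF8 KO mean was 4.10 times the control mean (log2 fold change 2.02, SE 0.33, limma adjusted p = 0.0041), without overlap. SGSH, the sulfamidase of heparan sulfate, had 125, 138, 136 and 179 normalized counts in the control and 26.6, 1.91, 33.9 and 12.8 in the IRF8 KO libraries (log2 fold change -3.36, SE 0.70, limma adjusted p = 0.012). All 4 IRF8 KO values were below the lowest control value, and IRF8 KO replicate 2 had the lowest. SGSH was therefore opposite in direction to ARSB, and both calls held in each of the 8 fits without 1 library. ARSA had a log2 fold change of 0.65 (limma adjusted p = 0.065, groups not overlapping, blocked adjusted p = 0.042) and IDS one of -0.32 (limma adjusted p = 0.48, groups overlapping). IDS has a nearby pseudogene, so that its count is uncertain.

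Among the genes of lipid breakdown, PSAP, PPT1 and NPC2 were higher, and LIPA and SMPD1 were not called. PSAP encodes the precursor of the saposins, which present sphingolipids to their hydrolases. It had 8773, 12478, 8009 and 14026 normalized counts in the control and 36765, 31105, 18969 and 23587 in the IRF8 KO libraries, and the IRF8 KO mean was 2.55 times the control mean (log2 fold change 1.34, SE 0.25, limma adjusted p = 0.007). PPT1, which removes palmitate from proteins, had 12951, 9237, 12193 and 10474 against 31322, 18321, 18206 and 19050.0 (log2 fold change 0.93, SE 0.20, limma adjusted p = 0.013). NPC2, which hands cholesterol to the membrane protein NPC1, had 769.9, 868, 721 and 987 against 2565, 2074, 1517 and 1621 (log2 fold change 1.19, SE 0.19, limma adjusted p = 0.0034). The groups did not overlap in these 3 genes, and their calls held in each of the 8 fits without 1 library. The acid lipase LIPA had a log2 fold change of 0.49 (limma adjusted p = 0.15) and the acid sphingomyelinase SMPD1 one of -0.34 (limma adjusted p = 0.30), both with overlapping groups.

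Of the 8 membrane proteins and pump subunits, LAMP1 and CD63 were called higher. LAMP1, an abundant glycoprotein of the lysosomal membrane, had 10639.8, 7980.4, 10086 and 9044 normalized counts in the control and 28946, 17021, 17663 and 17919.7 in the IRF8 KO libraries (log2 fold change 1.08, SE 0.19, limma adjusted p = 0.0051). The tetraspanin CD63 had 7892, 8565, 7629.9 and 7956 against 16851, 13609.9, 13268 and 11864 (log2 fold change 0.78, SE 0.13, limma adjusted p = 0.0035). Neither gene showed an overlap between the groups, and IRF8 KO replicate 1 was the highest library for both. LAMP2, the paralog of LAMP1, had 15018, 15796, 15163 and 17982 normalized counts in the control and 30411, 20964, 17615 and 21115 in the IRF8 KO libraries (log2 fold change 0.47, SE 0.17, limma adjusted p = 0.091). IRF8 KO replicate 3 of LAMP2 lay just below control replicate 4. The calcium channel MCOLN1 had a log2 fold change of 0.55 (limma adjusted p = 0.14, blocked adjusted p = 0.016). SCARB2, a sorting receptor, ATP6V1H, a subunit of the proton pump, CLN3 and the cholesterol transporter NPC1 had log2 fold changes of 0.26, 0.12, -0.091 and -0.29 with limma adjusted p-values between 0.39 and 0.89. NPC1 is a gene of chromosome 18 (median log2 fold change -0.19), and its difference relative to that median was -0.060.

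All 3 phosphatase and nuclease genes were called higher, although ACP5 passed the filter on low values through the IRF8 KO libraries alone. DNASE2, the acid nuclease that digests DNA in lysosomes, had 232, 2497, 184 and 2627 normalized counts in control replicates 1 to 4 and 7624, 8253, 5099.9 and 10010.5 in IRF8 KO replicates 1 to 4 (log2 fold change 3.37, SE 0.89, limma adjusted p = 0.031). The lowest IRF8 KO value was above the highest control value, although the control libraries differed widely among themselves. The log2 difference was 4.91 in replicates 1 and 3 and 1.83 in replicates 2 and 4, the call was lost without control replicate 1 or 3 or any single IRF8 KO library (largest adjusted p 0.08), and edgeR did not call the gene. ACP2, the lysosomal acid phosphatase, had 656, 692, 614 and 811 against 1151, 898, 1204 and 1222 normalized counts (log2 fold change 0.69, SE 0.15, limma adjusted p = 0.014), without overlap. ACP5, the tartrate-resistant acid phosphatase of osteoclasts and macrophages, had between 0.804 and 10.4 normalized counts in the control and between 6.39 and 43.3 in the IRF8 KO libraries. It was called (log2 fold change 2.47, SE 0.72, limma adjusted p = 0.044) although the groups overlapped. The call was lost with edgeR, and without any 1 of IRF8 KO replicates 2 to 4 and control replicates 1, 3 and 4 (largest adjusted p 0.11).

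GRN encodes progranulin, which is cleaved in lysosomes and is needed for their function. It had 9897, 7984, 9154 and 9304 normalized counts in the control and 24616, 21851, 15725 and 13433 in the IRF8 KO libraries (log2 fold change 1.02, SE 0.20, limma adjusted p = 0.0078), without overlap. TFEB, the activator of many lysosomal genes, had 1478, 1856, 1331 and 1773 against 799, 1321, 1179.5 and 685. Its log2 fold change was -0.73 (SE 0.23, limma adjusted p = 0.058), so that it did not pass the test although every IRF8 KO value lay below every control value. Groups of 4 that do not overlap always give p = 0.029 in the exact two-sided permutation test. That unadjusted p therefore adds nothing, and 13% of all tested genes were lower without overlap. With the block, the adjusted p of TFEB was 0.031. DESeq2 (adjusted p = 0.026) and limma on values centered on the chromosome medians (adjusted p = 0.042) also called TFEB lower. Any part of TFEB in the differences of the listed genes was not tested. Of the genes called higher that had a promoter window, 6 of 15 held CACGTG (ARSB, NEU1, CTSD, CD63, LAMP1 and ACP5), and of those not called 4 of 17 did (CLN3, GAA, MCOLN1 and CTSA). With these numbers no order is read from the shares.

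The spread among libraries of a group differed between the lysosomal genes. Control replicates 1 and 3 did not overlap control replicates 2 and 4 in 42 of the 46 genes (91.3%, beside 81.2% of all tested genes), and the corresponding IRF8 KO libraries did not overlap in 12 of the 46 (26.1%, beside 49.4%). In the control, 27 genes were higher in replicates 2 and 4 and 15 in replicates 1 and 3. The lower share in the IRF8 KO libraries does not mean that these were alike. IRF8 KO replicates 1 and 2 both lay above replicates 3 and 4 in GRN, PSAP, CST7 and TPP1, among others. In CTSL and ACP2 they both lay below. These examples were picked after their values were seen, and the genes divided in this way were not counted. All 21 genes called higher had positive differences in replicates 1 and 3 and in replicates 2 and 4 taken separately, and in 20 of them the difference was larger in replicates 1 and 3, ARSB being the exception. The 21 genes were also higher in each of the 4 same-numbered pairs, and both genes called lower were lower in each pair. For 20 of the 21 genes and for both genes called lower, the groups did not overlap. Their signs in the pairs and in both sets of replicates were therefore fixed and add no support to the calls. Of the 23 genes not called, 10 were higher and 4 lower in all 4 pairs. IRF8 KO replicate 1 had the highest value in 14 of the 21 genes, and this library also had the highest share of reads on the neutrophil granule markers, 0.474% beside 0.202% to 0.378% in the other IRF8 KO libraries and 0.0437% to 0.0606% in the control. Without this library, 16 of the 21 genes were still called higher. Shares over all tested genes were not taken for the same-numbered pairs, the larger differences in replicates 1 and 3 or the highest library. These counts are therefore not read as particular to the lysosomal genes.

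**Figure D4:**
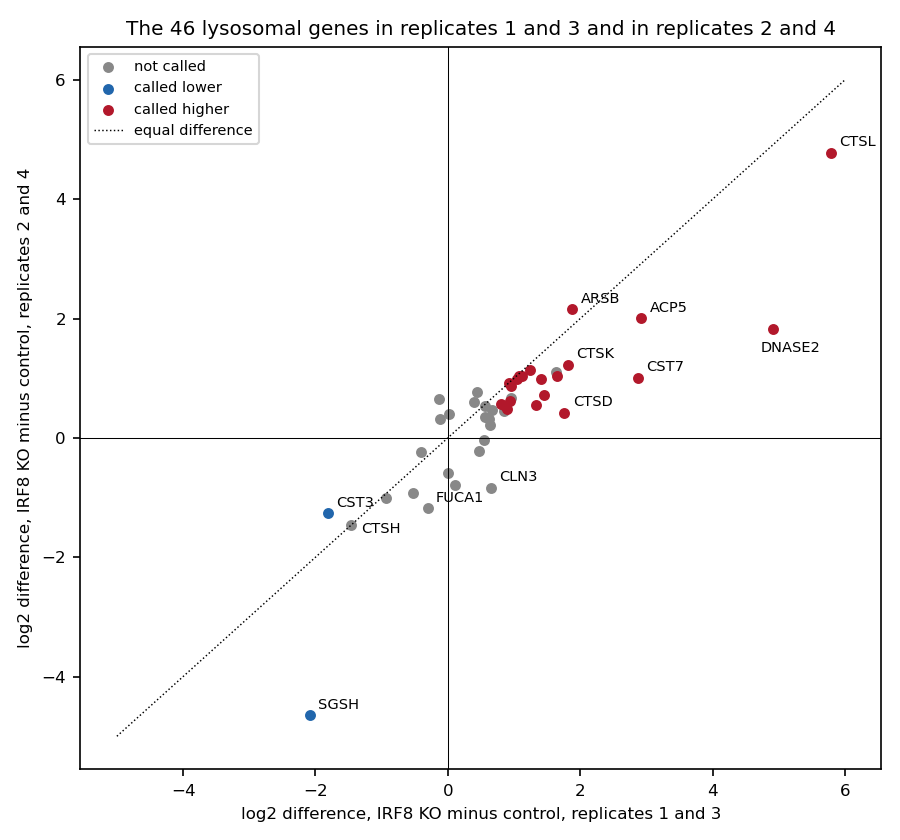
Log2 difference between IRF8 KO and control of each of the 46 lysosomal genes in replicates 2 and 4 (y axis) against replicates 1 and 3 (x axis), colored by the call over all 8 libraries, with a dotted line of equal difference. The 21 genes called higher are positive on both axes and 20 of them lie below the line, DNASE2 farthest, with 4.91 on the x and 1.83 on the y axis. For the 20 of the 21 whose groups do not overlap, positive values on both axes could not come out otherwise. The share of all tested genes below the line was not taken.

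The rest of the lysosomal pathway was read from 118 further genes, of which 112 were tested. Here 33 were called higher and 4 lower (8.65% and 9.56% over all tested genes), with a median log2 fold change of 0.36. By list, 5 of 8 tested lipid genes, 6 of 15 glycosidases and sulfatases, 6 of 16 V-ATPase subunits, 6 of 18 sorting genes and 6 of 24 membrane proteins were called higher, and 1 membrane protein, SIDT2, was called lower (log2 fold change -0.89, limma adjusted p = 0.012). The other proteases had 1 gene called higher and 2 called lower of 9. Of the MiT/TFE factors and the genes that control them, 1 of 19 was called higher and 1 lower.

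Further hydrolases and membrane proteins were among the genes called. FUCA2, a fucosidase, had 4212, 4007, 4120.5 and 4269 normalized counts in the control and 10991, 6729.9, 10411 and 8555 in the IRF8 KO libraries (log2 fold change 1.12, SE 0.16, limma adjusted p = 0.002). Among lipid genes the largest differences were those of SMPDL3A, an acid phosphodiesterase related to sphingomyelinase (log2 fold change 2.35, limma adjusted p = 0.0011), PLD3 (1.05, limma adjusted p = 0.015) and PPT2 (1.03, limma adjusted p = 0.0012). CD68, a membrane glycoprotein of macrophage lysosomes, had 2254, 2549, 2033 and 2177 normalized counts against 10649, 8427, 6940.2 and 6579 (log2 fold change 1.83, limma adjusted p = 0.00024). The groups overlapped in none of these 5 genes. SLC11A1, a metal transporter of phagocytes, and the calcium channel TPCN2 had log2 fold changes of 1.19 (limma adjusted p = 0.047) and 0.99 (limma adjusted p = 0.0057). The call of SLC11A1 was lost without any single library other than control replicate 4 (largest adjusted p 0.12).

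Genes of proton pumping and enzyme sorting were represented as well. The V-ATPase accessory subunits ATP6AP2 and ATP6AP1 had log2 fold changes of 0.98 and 0.92 (limma adjusted p = 0.0022 and 0.002), and the membrane subunit ATP6V0C one of 0.83 (limma adjusted p = 0.036). SORT1, the receptor sortilin, had 329.8, 262, 277 and 330.5 normalized counts in the control and 609.5, 1425, 997 and 1367 in the IRF8 KO libraries (log2 fold change 1.80, limma adjusted p = 0.0025). GNPTAB, which starts the synthesis of the mannose phosphate tag, and NAGPA, which completes it, had log2 fold changes of 1.35 (limma adjusted p = 0.0011) and 1.20 (limma adjusted p = 0.017). The call of NAGPA was lost without IRF8 KO replicate 3 (adjusted p 0.052), and that of ATP6V0C without any single library other than IRF8 KO replicate 2 (largest adjusted p 0.09). The receptors of the tag, M6PR and IGF2R, were not called (log2 fold changes 0.26 and 0.57, limma adjusted p = 0.29 and 0.22).

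Among these further genes, the remaining proteases held the largest falls, while the tested protease inhibitors all had positive log2 fold changes. CPVL, a carboxypeptidase of macrophages, had 74.8, 34.5, 70.9 and 31.1 normalized counts in the control, 2.71 in IRF8 KO replicate 3 and 0 in the other 3 IRF8 KO libraries (log2 fold change -5.17, limma adjusted p = 0.00049). CTSW, a cathepsin of cytotoxic lymphocytes, fell from a mean of 1169 ± 375 (SD, n = 4) to 431 ± 165 (SD, n = 4) normalized counts (log2 fold change -1.47, limma adjusted p = 0.011). PRCP, a lysosomal carboxypeptidase, rose from 832 ± 123 (SD, n = 4) to 3246 ± 1069 (SD, n = 4) (log2 fold change 1.92, limma adjusted p = 0.00094). The protease inhibitors CSTA and SERPINB1, the latter directed at neutrophil elastase, had log2 fold changes of 1.64 and 1.51 (limma adjusted p = 0.016 and 0.0067). Within the MiT/TFE family, MITF rose from 341 ± 10.2 to 584 ± 105 (SD, n = 4 each; log2 fold change 0.76, limma adjusted p = 0.011) and TFE3 fell from 2142 ± 246 to 1325 ± 91.2 (SD, n = 4 each; log2 fold change -0.69, limma adjusted p = 0.0051). TFEB, TFE3 and MITF therefore did not share a direction, TFEB not passing the test. TFEC, also a tested member of this family, was not called.

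**Figure D5:**
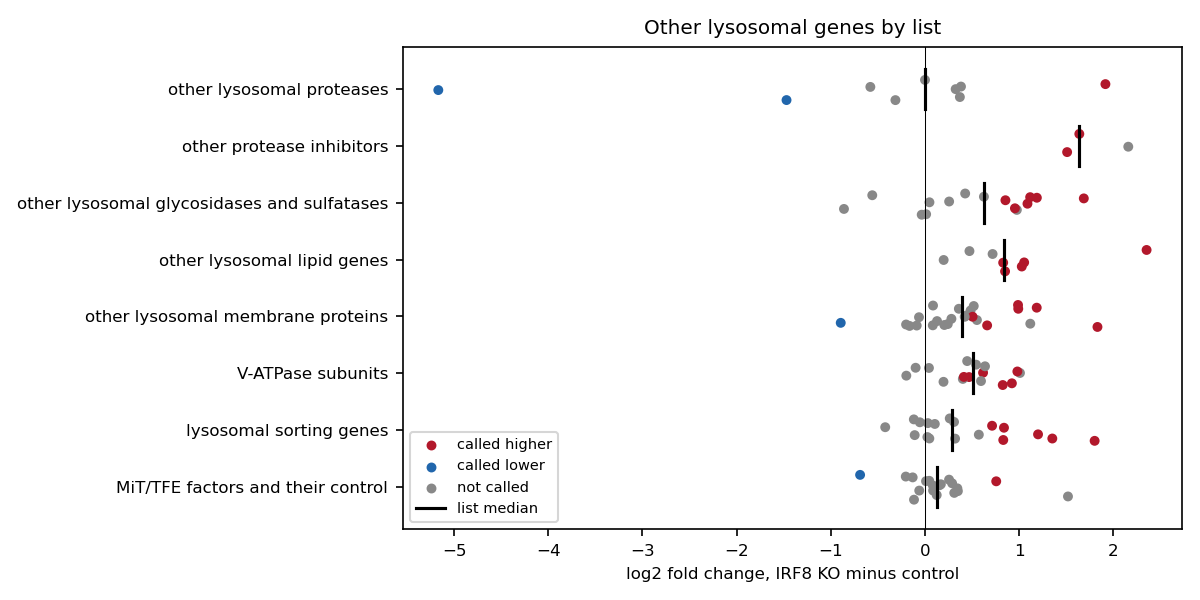
Log2 fold change (IRF8 KO minus control) of the 112 further tested lysosomal genes by list, 1 point per gene colored by the limma call, with a line at the median of each list. The medians are above 0 in every list, from 0.00087 for the other proteases to 1.64 for the protease inhibitors. They are 0.84 for lipid genes, 0.63 for glycosidases and sulfatases and 0.51 for V-ATPase subunits. Membrane proteins have 0.39, sorting genes 0.29 and the MiT/TFE list 0.13. CPVL stands far to the left at -5.17.

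The spans of 13 of the 46 genes overlap another protein-coding gene, and whether reads were counted by strand is not stated. Among them are GLA, GLB1, PPT1, NPC2, CD63 and ACP2, which were called higher, and SGSH, which was called lower. For SGSH the neighbor, CARD14, was not tested. It had 4.30 to 15.1 normalized counts in the control and 0.956 to 2.71 in the IRF8 KO libraries. For PPT1 the neighbor, CAP1, had 11012 to 15858 normalized counts in the control and 11725 to 13964 in the IRF8 KO libraries. LIPA overlaps 5 IFIT genes, of which IFIT1, IFIT2 and IFIT3 were called higher, IFIT5 was not called (log2 fold change -0.96) and IFIT1B was not tested. IFIT3 had 57.1, 108, 39.7 and 90.4 normalized counts in the control and up to 605 in an IRF8 KO library. For CTSA the neighbor PLTP had 110 to 374 normalized counts in the control and 119 to 167 in the IRF8 KO libraries. Reads that fall on both genes of such a pair cannot be assigned to 1 of them with certainty.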

How the data were processed

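RNA from MV4-11 cells was sequenced by the authors as stranded mRNA libraries. Reads were aligned with RNA-Star to GENCODE transcripts, counted per gene with featureCounts and scaled with DESeq2. The submitters' processing notes name hg19 and hg38 without saying which served RNA-Seq. The deposited signal per gene is a read count scaled by a size factor per library, called normalized count here. The deposited fold changes and p-values of the authors' own comparison and the ChIP-Seq samples were not used. Columns named wild type were assigned to the equally numbered control libraries.

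The 46 genes and all other lists were chosen with earlier results of these data known. The 13110 of 19590 genes whose mean over 8 libraries reached 10 normalized counts were compared on log2(normalized count + 1) with limma 3.58.1 (R 4.3.3), using a trended, robust prior variance, and called at a Benjamini-Hochberg adjusted p below 0.05. This scale understates the change of low genes. Exact two-sided permutation tests compared single genes. Values were whole reads for 100% of entries within 0.01 reads once divided by the value of 1 read, and edgeR 4.0.16 and DESeq2 1.42.0 were run on these reads. A gene at 10 normalized counts rests on about as many reads, so counting error is large there. The fit was tested on simulated data with independent libraries. These lacked the divisions between replicates seen here, so that the simulation does not show how the fit performs under them. Deviations of same-numbered control and IRF8 KO libraries correlated at 0.368, 0.478, 0.452 and 0.502 across genes in replicates 1 to 4, although neither the labels nor the paper say what a number marks, and crossed pairs such as control 1 with IRF8 KO 3 correlated as well (0.467). The adjusted p-values are from the fit without a block unless called blocked. The fit blocked on the number was an alternative, beside other pseudocounts, filters, scalings, library weights, chromosome centering and leaving out each library. Values in every library are given for called genes whose groups did not overlap, the chromosome 20 genes, TFEB, GRN and the gene with the highest mean count of each role, which served only to choose it. Of the other lysosomal genes, up to 3 per list and direction with the largest differences are named, apart from 2 that are not reported here. CTSH, M6PR, IGF2R and the overlapping neighbors were added after their values were seen. Transcript lengths were not used here, so counts do not rank the abundance of different genes. Promoters and gene positions are from RefSeq, GRCh38.p14.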

Additional observations from a re-analysis of the deposited data

Results flagged for a closer look

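In 2 of the 94 groups of 4 values examined (46 lysosomal genes and IRF8 in both groups), 1 library lay far from the other 3, beyond Dixon's 95% critical value for 4 values, where chance gives about 1 in 20. Both were in IRF8 KO replicate 1. PPT1 had 31322 normalized counts there, beside 18206 to 19050.0 in the other IRF8 KO libraries, and LAMP1 had 28946, beside 17021 to 17919.7. Without this library the log2 fold changes remained above 0 and both genes were still called higher.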

How the results depend on the processing

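The number of lysosomal genes called higher (21) stayed between 15 and 27 in all alternatives with adjusted p-values, with 18 in edgeR, 26 in DESeq2 and 24 after centering on chromosome medians, and lay between 15 and 18 when 1 library was left out. The number called lower (2) was 4 with DESeq2, 1 with a filter at a mean of 100, which left SGSH untested, 6 with the replicate block, 6 with a term for replicates 1 and 3 against 2 and 4, and 2 to 5 without 1 library, the 5 arising without IRF8 KO replicate 2. The blocked calls added ARSA, CTSZ, GAA, HEXA, MCOLN1 and NAGLU as higher and CTSH, FUCA1, TFEB and TPP1 as lower, and lost 0 of the 23 calls. Of the other lysosomal genes, 47 were higher and 8 lower with the block, 55 and 8 with the term for replicates 1 and 3, and 15 and 2 at the thresholds of the study. The log2 fold change of IRF8 ranged from -2.46 to -1.65 without 1 library. Without 1 library, the log2 fold change of GUSB ranged from -0.0075 (without IRF8 KO replicate 2) to 0.18, and the log2 fold change of CLN3 from -0.26 to 0.076, being above 0 without IRF8 KO replicate 2, IRF8 KO replicate 4 or control replicate 2, and 0.061 with quantile normalization. Neither gene was called. The cause of these shifts was not tested. Depth limits CTSL, LGMN and ACP5 in the control and SGSH in the IRF8 KO libraries, where values rest on a few reads.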
